A study of Drosophila melanogaster with 2 samples.

Results

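Respiratory complex I genes of Drosophila melanogaster were examined for promoter binding by Bigmax in whole embryos. The genes were all protein-coding genes whose symbol starts with ND-, which gave 40 of the 13945 protein-coding genes on the 6 chromosome arms. Of these, 34 are subunits without a paralogue suffix and 6 carry the suffix L of a paralogue: ND-20L, ND-24L, ND-49L, ND-51L1, ND-51L2 and ND-B14.5AL. The material was chromatin of mixed-sex embryos aged 0 to 24 h from a transgenic line in which Bigmax carries GFP at its C terminus, sheared by sonication to 200 to 800 bp. The 2 libraries form 1 group, biological replicates 3 and 4, with no other genotype, treatment or stage, so binding is described and no groups were tested against each other. The antibody label of each library names Bigmax, whereas the free text calls each an input control, and the lists were read as the immunoprecipitation peaks they were deposited as. Peaks from whole embryos are a mixture over all tissues and over the whole of embryogenesis.

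Complex I, or NADH:ubiquinone oxidoreductase, passes electrons from NADH to ubiquinone and pumps protons across the inner mitochondrial membrane. Core subunits of the peripheral arm carry the flavin and the iron-sulphur clusters, the core of the membrane arm is encoded by mitochondrial DNA, and accessory subunits surround both arms. Bigmax, the fly counterpart of mammalian Mlx, pairs with Mondo, the fly relative of ChREBP, and the dimer recognises the E-box CACGTG and acts in the response to sugar.

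A reproducible peak, one in the list that passed the irreproducible discovery rate (IDR) threshold, lay at 6 complex I promoters. The sequence around 5 of these summits is shown because letters shared among 4 of them recur in the results. Each lies within 50 bp of the summit, in an intron, and is printed 5′ to 3′ on the strand of the complex I gene, taken from assembly release 6 (dm6). Capitals mark the 6-mer AGGTTA or its complement TAACCT, and TTATGTAA or its complement TTACATAA, a form of the nuclear respiratory gene element described in fly mitochondrial genes. The windows are chr3R:15836901-15836989 on the minus strand for ND-23, chr2L:3466481-3466581 on the plus strand for ND-PDSW, chr3L:20495195-20495295 on the plus strand for ND-39, chr3L:1330307-1330407 on the plus strand for ND-ACP and chrX:6679381-6679481 on the minus strand for ND-ASHI. The ND-23 window stops at the edge of an exon.
ND-23: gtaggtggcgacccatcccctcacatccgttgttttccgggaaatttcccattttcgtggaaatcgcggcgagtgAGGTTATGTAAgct
ND-PDSW: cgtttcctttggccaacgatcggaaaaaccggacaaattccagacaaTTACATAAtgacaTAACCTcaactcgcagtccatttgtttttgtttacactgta
ND-39: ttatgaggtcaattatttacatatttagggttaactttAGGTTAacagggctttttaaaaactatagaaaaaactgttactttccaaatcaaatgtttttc
ND-ACP: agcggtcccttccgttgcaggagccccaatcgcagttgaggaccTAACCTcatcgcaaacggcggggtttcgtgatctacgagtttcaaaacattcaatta
ND-ASHI: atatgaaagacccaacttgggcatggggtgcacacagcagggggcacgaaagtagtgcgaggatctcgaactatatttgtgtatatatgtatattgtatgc
In ND-23 the 6-mer and the respiratory element overlap and form a single block, in ND-PDSW they stand a few bases apart, in ND-39 and ND-ACP the 6-mer stands alone, and in ND-ASHI neither occurs. ND-19 is not shown, and neither occurs within 50 bp of its summit.

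A promoter peak was counted when its summit lay within 500 bp of any annotated start of the gene. By this rule 6 of 40 complex I genes had a reproducible peak, 15% (95% Wilson interval 7.06 to 29.1%), against 1557 of all 13945 genes, 11.2%. Without the L paralogues the share was 6 of 34, 17.6% (8.35 to 33.5%), and both intervals hold the share of all genes. The share of complex I promoters with a reproducible peak was thus near the background of all genes. The signal of the 6, in the peak caller's own units, had a median of 285 and a range of 137 to 1011, against a median of 165 and a range of 111 to 3685 over all 1557 genes with such a peak. The intervals cover the counting of genes only, because the lists hold no read counts and the sequencing depth is unknown.

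**Figure D1:**
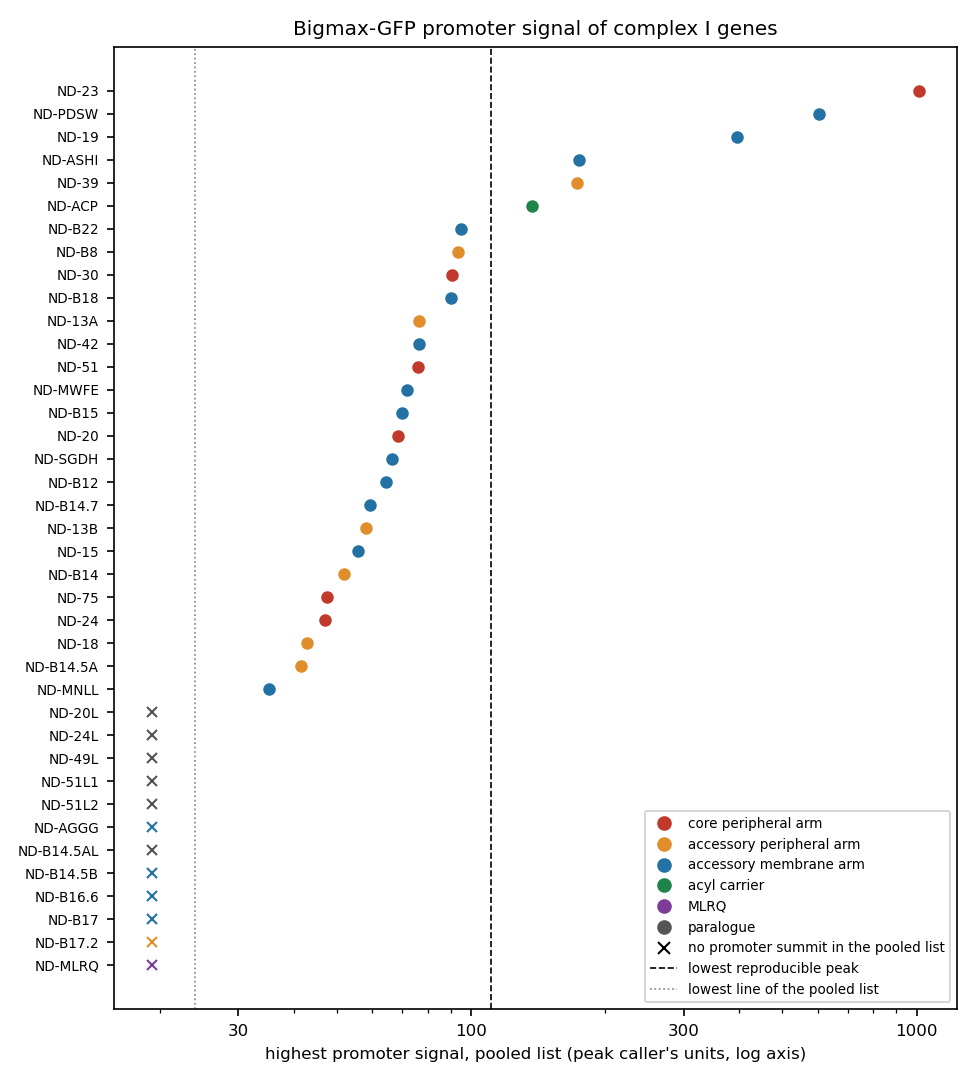
Highest signal of a pooled promoter summit, in the peak caller's units on a log axis, for the complex I genes, coloured by role. Crosses at the left are genes with no pooled promoter summit, of which 1 of 13 is not plotted, the dashed line is the lowest reproducible signal, 111, and the dotted line is the lowest signal in the pooled list, 24.0. The 6 genes to the right of the dashed line run from ND-ACP at 137 to ND-23 at 1011.

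The strongest complex I promoter was that of ND-23, the counterpart of mammalian NDUFS8, a core subunit whose iron-sulphur clusters lie on the electron path. Its peak at 3R 15836667 to 15837222 had a signal of 1011, which ranked 84 of 1949 reproducible peaks, and 95.2% of genes with a reproducible promoter peak had a lower signal. The signal was 584 in replicate 3, rank 83 of its own list, and 442 in replicate 4, rank 80. Signals of different lists have their own scale, so the replicates are compared by rank, and here the ranks nearly coincided. ND-23 was the only one of the 7 core peripheral-arm genes with a reproducible peak, 14.3% (2.57 to 51.3%) against 11.2% of all genes.

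Accessory subunits of the membrane arm held 3 of the 6 peaks, out of 17 such genes. This was 17.6% (6.19 to 41.0%) against 11.2% of all genes, so the interval holds the background. ND-PDSW, the counterpart of NDUFB10, followed ND-23 with a signal of 604 at 2L 3465962 to 3466781, rank 152. Its signal was 339 in replicate 3, rank 165, and 274 in replicate 4, rank 154. ND-19, the counterpart of NDUFA8, had a signal of 395 at 2R 24664592 to 24665026, rank 272, with 249 in replicate 3, rank 255, and 169 in replicate 4, rank 297. ND-ASHI, the counterpart of NDUFB8, had a signal of 175 at X 6679231 to 6679630, rank 865, with 92.1 in replicate 3, rank 1006, and 80.6 in replicate 4, rank 917. ND-PDSW and ND-19 were above 91.6% and 84.5% of bound genes, while ND-ASHI stood near the middle at 55.2%.

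Of 8 accessory subunits of the peripheral arm, 1 had a reproducible peak, 12.5% (2.24 to 47.1%) against 11.2% of all genes. This was ND-39, the counterpart of NDUFA9, with a signal of 173 at 3L 20495223 to 20495326, rank 882, and with 106 in replicate 3, rank 804, and 75.9 in replicate 4, rank 1021. ND-ACP, the mitochondrial acyl carrier protein, which also serves mitochondrial fatty acid synthesis, had the weakest of the 6 peaks, with a signal of 137 at 3L 1330157 to 1330556, rank 1300. It was the one member whose replicates stood far apart, with 115 in replicate 3, rank 695, and 32.0 in replicate 4, rank 5826. All 6 peaks carried the same −log10 q-value of 3.64, the highest in the list, so this column does not order them.

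A relaxed peak, from the pooled list of 30000 lines with no reproducibility threshold, lay at far more complex I promoters. That list was deposited as peaks and background, the input to the IDR step, so a relaxed peak need not be a bound site. The pooled list held a promoter summit for 27 of 40 genes, 67.5% (52.0 to 79.9%), against 56.7% of all genes. All 27 were among the 34 subunits without the suffix, 79.4% (63.2 to 89.7%). The list of replicate 3 held 28 of 40, 70.0% against 54.7% of all genes, and that of replicate 4 held 29 of 40, 72.5% against 55.1%. In each of these lists the share was above that of all genes, and the interval of the 40 genes held that share in the pooled list and in replicate 3 (54.6 to 81.9%) but not in replicate 4 (57.2 to 83.9%). For the 34 subunits the interval in the pooled list lay above the share of all genes.

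**Figure D2:**
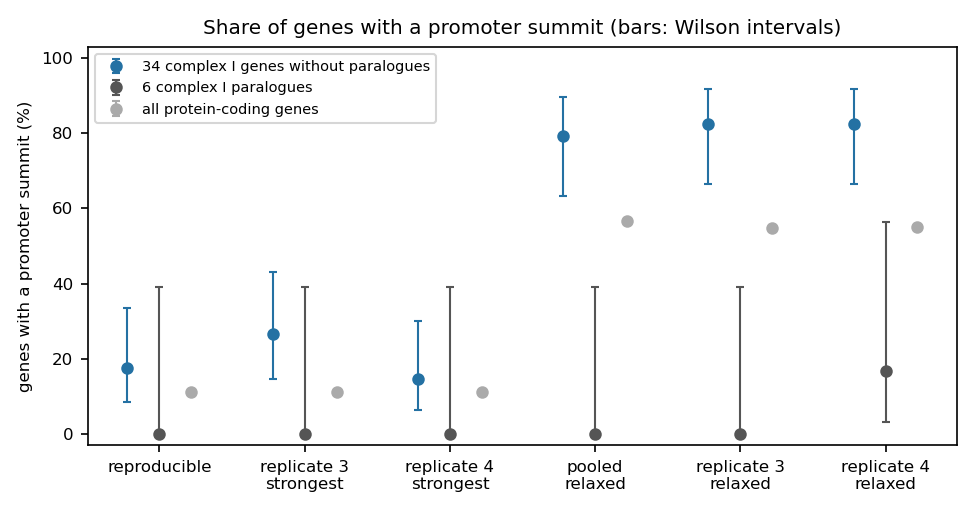
Percent of complex I genes without paralogues, of L paralogues and of all protein-coding genes with a promoter summit in the reproducible, pooled and replicate lists, with 95% Wilson intervals as bars. The subunits stand at 17.6% in the reproducible list and 79.4% in the pooled list, and the L paralogues at 0% in both.

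The 21 genes with a relaxed peak alone had signals from 35.1 to 95.0 with a median of 66.4, against a median of 51.8 over the 6350 genes of this kind. They ranked 2689 to 15632 in the pooled list, with −log10 q-values of 0.59 to 2.70. All stood below the lowest reproducible signal of 111, and no complex I gene lay between 95.0 and 111. Among core subunits, ND-30, the counterpart of NDUFS3, had a signal of 90.4, with 70.9 in replicate 3 and 42.6 in replicate 4. These replicate values belong to different summits of ND-30, 575 bp apart and on opposite sides of the start. The pooled summit lay on the side of the replicate 3 summit. ND-51, which binds NADH and the flavin in its mammalian counterpart, had 75.8, with 56.8 in replicate 3 and 19.4 in replicate 4. ND-20, the counterpart of NDUFS7 beside the quinone site, had 68.6, with 43.4 in replicate 3 and 18.9 in replicate 4. ND-75 and ND-24, which carry further iron-sulphur clusters, were lower at 47.4 and 46.9. With ND-23, 6 of the 7 core genes thus had a pooled peak, 85.7% (48.7 to 97.4%) against 56.7% of all genes.

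Accessory subunits made up the rest of the relaxed peaks. On the peripheral arm, 7 of 8 genes had a pooled peak, 87.5% (52.9 to 97.8%) against 56.7% of all genes. Besides ND-39 these were ND-B8 at 93.5, ND-13A at 76.4, ND-13B at 58.2, ND-B14 at 51.9, ND-18 at 42.7 and ND-B14.5A at 41.6. ND-18 is the counterpart of NDUFS4, and ND-B14 belongs to the LYR-motif proteins that bind the acyl carrier protein. On the membrane arm, 13 of 17 had one, 76.5% (52.7 to 90.4%), and the intervals of both arms hold the share of all genes. The highest relaxed signals there were ND-B22 at 95.0, another LYR-motif protein, ND-B18 at 90.3, ND-42 at 76.4, ND-MWFE at 71.8 and ND-B15 at 69.9. Lower values followed for ND-SGDH at 66.4, ND-B12 at 64.5, ND-B14.7 at 59.2, ND-15 at 55.6 and ND-MNLL at 35.1. Roles did not separate by signal, since genes of each arm ran from the upper to the lower end of this range.

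The other 13 genes had no pooled summit within 500 bp of a start. Named here, they were the 6 L paralogues, the peripheral-arm subunit ND-B17.2, the membrane-arm subunits ND-AGGG, ND-B14.5B, ND-B16.6 and ND-B17, and ND-MLRQ, whose mammalian counterpart NDUFA4 is assigned to cytochrome c oxidase. Single replicate lists held a weak promoter summit for 4 of them, at 24.9 for ND-B17.2 and 24.7 for ND-MLRQ in replicate 3, and for ND-B17 and, at 12.9, for ND-51L1 in replicate 4. The remaining 9 had a promoter summit in no list. The nearest pooled summit lay 612 bp from a start for ND-B16.6, 724 bp for ND-AGGG and 821 bp for ND-B14.5B, just outside the window, and 27552 bp for ND-MLRQ. Inside the window, the pooled summit furthest from its start was that of ND-ACP at 408 bp, and its replicate 4 summit lay at 478 bp. No complex I gene thus lay within a few bases of the limit.

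The replicates ranked the strongest complex I promoters alike, and the order of the weaker ones differed. ND-23, ND-PDSW, ND-19, ND-ASHI and ND-39 were the 5 genes with a promoter summit among the 1949 strongest peaks of both replicates, as many peaks as the reproducible list holds. Replicate 3 alone gave 9 of 40 genes, 22.5% (12.3 to 37.5%) against 11.0% of all genes, an interval that lies above that share, by adding ND-ACP, ND-30, ND-B15 and ND-MWFE. Replicate 4 alone gave 5 of 40, 12.5% (5.46 to 26.1%) against 11.1% of all genes, an interval that holds it. ND-B15 had a signal of 66.1 in replicate 3, rank 1883, and 27.9 in replicate 4, rank 7560. ND-MWFE had 67.4 in replicate 3, rank 1815, and 13.3 in replicate 4, rank 27707. The replicate summits lay 308 bp apart for ND-B15, 219 bp for ND-MWFE and 575 bp for ND-30, so their 2 values need not describe 1 peak. Over the 26 genes with a promoter summit in both replicate lists, Spearman's rho across genes was 0.44 and Pearson's r of log2 signals was 0.77. Over the 20 of these without a reproducible peak they were −0.06 and −0.18. Over all 6326 genes in both lists, those with a reproducible peak included, they were 0.69 and 0.82. The reproducible peaks were selected for agreement between replicates, and leaving them out also narrows the range of signals. Lower values over the 20 genes follow in part from that choice, and no like value over all genes without a reproducible peak is given. These correlations are across genes that share 2 libraries and are given as a description. In 10 of the 20 genes with a relaxed peak that were in both replicate lists, the replicate summits lay within 50 bp of each other.

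**Figure D3:**
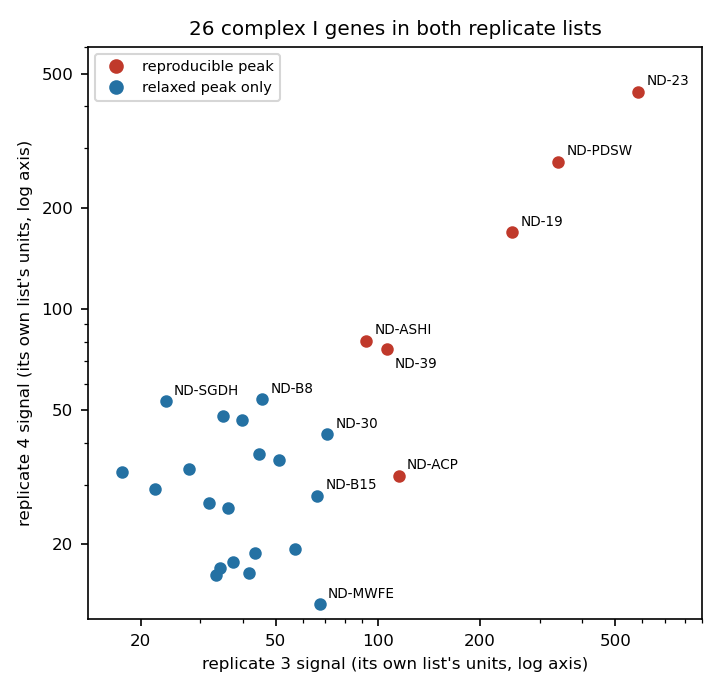
Highest promoter signal in replicate 3 (x axis) and replicate 4 (y axis), each in the units of its own list on a log axis, for the 26 complex I genes in both lists. ND-23, ND-PDSW and ND-19 lie at the top right in both, ND-ACP falls at 115 and 32.0, and the relaxed-only genes form a cloud with no shared order.

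Summits of the 6 reproducible peaks lay away from the start and inside introns. The ND-23 summit was 166 bp downstream of the start, that of ND-19 280 bp, that of ND-PDSW 374 bp and that of ND-ACP 408 bp, each in an intron of the gene itself. The ND-39 summit also fell in an intron of its own gene, 102 bp upstream of a start that lies 3265 bp from its other start. The ND-ASHI summit was 313 bp upstream and fell in an intron of the neighbouring gene Fum1, which encodes a fumarase of the citric acid cycle. All 6 were therefore intronic, against 315 of the 1557 genes with a reproducible promoter peak, 20.2%, while 0 of the 6 lay in a 5′ UTR, against 36.2%. The median distance to the nearest start was 296 bp (102 to 408 bp) for the 6 genes and 88.0 bp for all 1557, and 4 of 6 lay beyond 250 bp, 66.7% against 17.1%. With 6 genes these shares are descriptions of single loci.

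The relaxed peaks of complex I genes sat differently. Their median distance was 84.0 bp from the nearest start, against 102 bp for all genes with a relaxed peak alone, and 2 of 21 lay beyond 250 bp, 9.52% against 23.1%. Of these 21 summits, 12 fell in a 5′ UTR, 57.1% against 34.4%, 4 in a coding exon, 3 between genes and 2 in an intron, 9.52% against 12.8%. ND-51 had its summit 1 bp from its start, ND-MNLL 7 bp, ND-B18 23 bp and ND-24 25 bp.

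**Figure D4:**
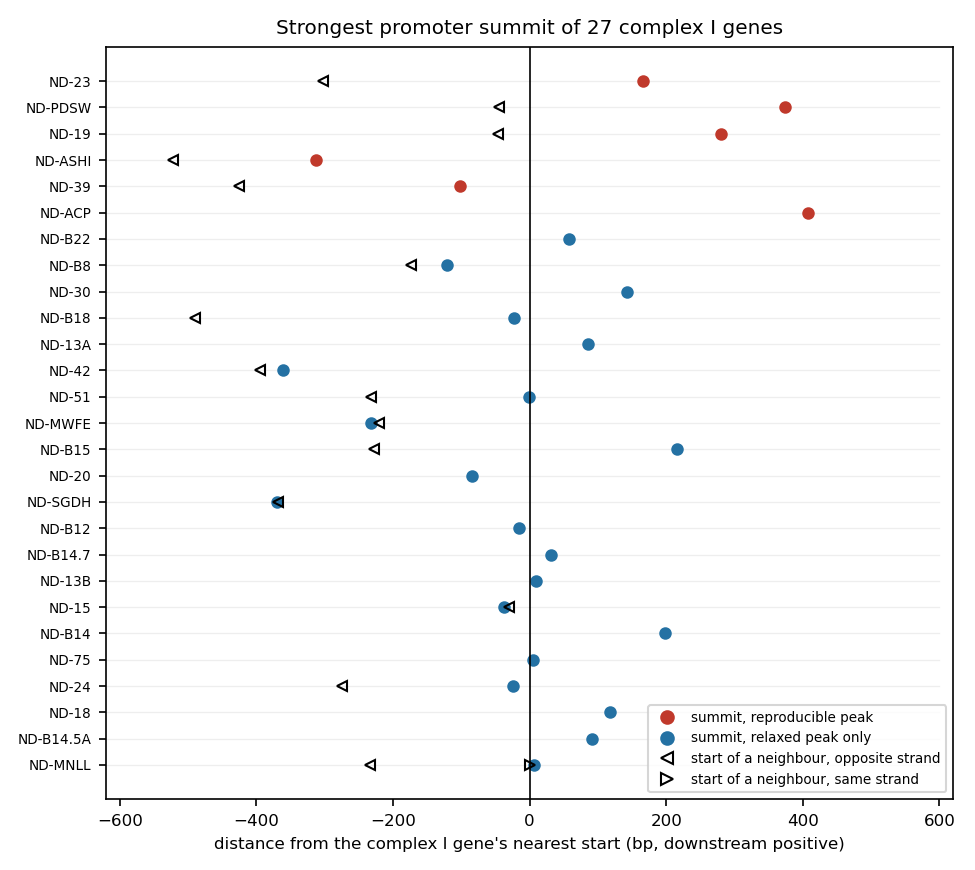
Distance in bp from the nearest start of each of 27 complex I genes to its strongest promoter summit, downstream to the right, with red points for reproducible and blue points for relaxed peaks. Open triangles mark starts of other protein-coding genes within 500 bp of the summit. The red points lie 102 to 408 bp from the start.

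Most of the reproducible peaks could be assigned to another gene as well. Of the 6 summits, 5 were also no more than 500 bp from the start of a gene on the opposite strand, 83.3%. Over all 1557 genes, 48.9% shared with any gene and 46.1% with one on the opposite strand. ND-23 faces spn-E, an RNA helicase gene of the germline piRNA pathway, with 302 bp between the starts. ND-PDSW faces msl-2, which encodes a subunit of the male dosage compensation complex, at 45 bp, and ND-19 faces CG30161 at 46 bp. ZnT77C, a zinc transporter gene, starts inside the ND-39 gene on the opposite strand, 426 bp from the internal ND-39 start nearest the summit. ND-ASHI faces Fum1, at 522 bp from the Fum1 start nearest the summit. Since that summit lies in a Fum1 intron, Fum1 has a further start upstream of it, and 522 bp is not the smallest distance between the genes. The ND-23, ND-PDSW, ND-19 and ND-39 summits were nearer to the complex I start, by 468 bp to spn-E against 166 bp, by 419 bp to msl-2 against 374 bp, by 326 bp to CG30161 against 280 bp and by 324 bp to ZnT77C against 102 bp. The ND-ASHI summit was nearer to Fum1, at 209 bp against 313 bp. ND-ACP was the one gene of the 6 with a promoter peak of its own. Which gene of a pair a peak acts on cannot be read from these lists.

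At the relaxed peaks 10 of 21 genes shared their summit with another gene, 47.6%, against 37.0% of all genes with a relaxed peak alone. ND-B8 and Secp43 start 173 bp apart, ND-51 and CG13994 232 bp, ND-24 and corolla 274 bp, ND-B15 and CG10151 228 bp, and ND-B18 and hiw 490 bp. In 5 pairs the summit was nearer to the start of the neighbour: 8 bp from Pus10 against 38 bp from ND-15, 11 bp from TppII against 232 bp from ND-MWFE, 2 bp from RhoGAP68F against 370 bp from ND-SGDH, 34 bp from Cchl against 361 bp from ND-42, and 52 bp from Secp43 against 121 bp from ND-B8. Cchl encodes cytochrome c heme lyase, a mitochondrial enzyme. ND-MNLL shares its start with CG45089 on the same strand and lies 233 bp from p115. A head-to-head gene, one that starts on the opposite strand within 1000 bp upstream of the outermost start, was present for 20 of 34 subunits, 58.8%, and for 0 of 6 L paralogues, against 34.7% of all genes. It was present for 4 of 6 complex I genes with a reproducible peak, for 13 of 21 with a relaxed peak and for 3 of 13 with none, which over all genes were 56.9%, 44.9% and 18.3%.

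AGGTTA was found no more than 50 bp from the summit in 4 of the 6 reproducible peaks, 66.7%, namely ND-23, ND-PDSW, ND-39 and ND-ACP. It did so in 198 of all 1289 reproducible promoter peaks, 15.4%, and in 72 of the 296 of these whose summit was intronic, 24.3%. The centre of the 6-mer was 3.50 bp from the summit in ND-ACP, 9.50 bp in ND-39, 12.5 bp in ND-PDSW and 39.5 bp in ND-23. ND-19 had a pair of overlapping copies further out, 93.5 and 98.5 bp from its summit, so that 5 of 6 peaks held it within 100 bp, 83.3% against 22.5%. Within complex I the 4 peaks with the 6-mer had a median signal of 388 and the other 2 a median of 285, against 319 and 155 over all reproducible promoter peaks. At relaxed peaks the 6-mer was found in 1 of 21, that of ND-B12, 4.76% against 2.91% of 8151. The 21 are the strongest summit of each gene, whereas the 8151 are all pooled promoter summits ranked below the first 1949. The latter include secondary summits, so the 2 shares are not strictly alike. The 6-mer was chosen for this search with earlier results of these data known.

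The nuclear respiratory element was searched as TTATATAA, as TTATGTAA and as TTACGTAA. TTATGTAA lay within 50 bp of 2 of the 6 reproducible summits, at 0.500 bp in ND-PDSW and 43.5 bp in ND-23, against 16 of 1289 such peaks, 1.24%, and 10 of 296 intronic ones, 3.38%. Both of these peaks held AGGTTA too, a pairing found in 6 of 1289 peaks, 0.465%, so that ND-23 and ND-PDSW are 2 of those 6. In ND-23 the pair overlaps, which was so in 4 of 1289 peaks, 0.310%. Among relaxed peaks ND-B12 also held both, and ND-B14.7 held TTACGTAA. ND-19 held TTATATAA at 89.5 bp from the summit.

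The E-box CACGTG was within 50 bp of 0 of the 6 reproducible and 0 of the 21 relaxed summits. It was near 36 of 1289, 2.79%, and 131 of 8151, 1.61%, of all reproducible and all weaker pooled promoter summits. TATCGATA, the DNA replication-related element bound by DREF, and GTCACACT, the core of Motif 1 bound by M1BP, were also at 0 of 6 and 0 of 21, against 5.04% and 4.19% of all reproducible promoter peaks. Counts of 0 among so few windows say only that these letters are not there. In the promoter windows of all 40 genes, from 250 bp before to 50 bp after the outermost start, GTCACACT occurred in 7, 17.5% against 6.62% of 13945, and TATCGATA in 6, 15% against 9.36%. A form of the respiratory element occurred in 5, 12.5% against 5.18%, AGGTTA in 2, 5.00% against 6.88%, and CACGTG in 1, that of ND-PDSW, 2.50% against 4.20%. All motifs were counted on both strands, and a match is a run of letters, not a measured site.

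**Figure D5:**
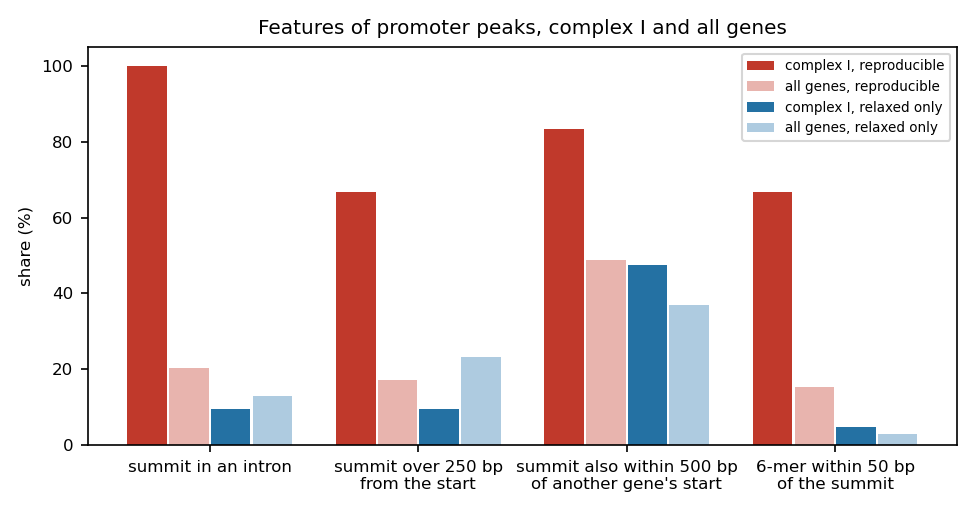
Percent of promoter peaks with a summit in an intron, more than 250 bp from the start, within 500 bp of the start of another gene, or within 50 bp of AGGTTA, for complex I and for all genes. The first 3 sets of bars count genes (6, 1557, 21 and 6350) and the last counts peaks (6, 1289, 21 and 8151). In the last set, complex I has the strongest summit per gene, and all genes have every promoter summit of that kind. The reproducible complex I peaks stand at 100%, 66.7%, 83.3% and 66.7%.

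The 6 L paralogues had no reproducible peak, 0 of 6 against 11.2% of all genes. They had no pooled promoter peak either, 0 of 6 against 56.7%. With an upper 95% limit of 39.0%, the interval of the reproducible count holds the share of all genes, and that of the pooled count does not. Duplicates of nuclear respiratory genes in Drosophila are known to be expressed mostly in testis, and expression was not measured here. The one paralogue summit in any list was that of ND-51L1 in replicate 4, with a signal of 12.9 at rank 29208 of 30000. The parents ND-51, ND-20, ND-24 and ND-B14.5A all had a pooled peak, at 75.8, 68.6, 46.9 and 41.6. A pooled peak was thus present at 4 of 5 parents, 80.0% (37.6 to 96.4%) against 56.7% of all genes. A reproducible one was present at 0 of 5 (upper limit 43.4%) against 11.2%. The nearest pooled summit was 1556 bp from ND-B14.5AL, 1994 bp from ND-20L, 2015 bp from ND-51L1, 3401 bp from ND-24L, 6572 bp from ND-51L2 and 21651 bp from ND-49L.

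The proteins of 5 of the 6 paralogues were compared with their parents, and the sixth comparison is not reported here. Among these 5, ND-20L was the closest, with 76.9% of its residues identical to ND-20, followed by ND-51L1 at 51.9% and ND-51L2 at 49.3% of ND-51, ND-24L at 49.2% of ND-24 and ND-B14.5AL at 37.9% of ND-B14.5A. Coding exons numbered 1 for each of these 5, while among their parents ND-51 had 4, ND-24 had 3, ND-B14.5A had 2 and ND-20 had 1. Each paralogue lies on another chromosome arm than its parent.

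Factors that assemble complex I without being part of it were looked up from a list of 20 names, of which 8 matched the annotation. CIA30, the counterpart of NDUFAF1, was the 1 of 8 with a reproducible promoter peak, 12.5% against 11.2% of all genes, at a signal of 218, with 117 in replicate 3 and 101 in replicate 4, and a summit 85 bp upstream of its start. In the pooled list 7 of 8 had a promoter summit, against 56.7% of all genes, among them sicily at 48.5 and Nubpl, which delivers iron-sulphur clusters to complex I, at 39.6. CG8067 stood at 86.9, CG17726 at 57.1, CG11722 at 56.4 and CG3270 at 33.6, and CG5569 had a summit in replicate 3 alone, at 27.6.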

How the data were processed

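Peak lists of 2 Bigmax-GFP libraries, replicates 3 and 4, were analysed. According to the deposited notes, the authors mapped reads to dm6, called relaxed peaks per replicate and on pooled replicates against a control alignment that was not analysed here, and derived the IDR list of 1949 peaks from these. The sources used here name no peak caller. The signal of each peak, in the caller's units, and its −log10 q-value are the authors' deposited values. The signal was used to rank peaks within a list and was not compared between lists. Each relaxed list stops at 30000 lines, so absence from one also depends on that limit. Depth is unknown.

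Gene models were Ensembl release 115 (BDGP 6.54) on assembly release 6. For each gene the highest signal of a summit within 500 bp of any start of a protein-coding transcript was taken; a summit near several genes counted for each. Shares carry 95% Wilson intervals. Motifs were counted on both strands within 50 bp of summits, a window of 101 bp. Paralogue proteins were translated from the longest coding sequence and aligned globally (gap opening 10, extension 1). Python 3.11.15, numpy 2.4.6, scipy 1.17.1, Biopython 1.88 and matplotlib 3.10.9 were used. The steps were tested on simulated data. With 1 group there is no condition to test. Every ND- gene could be named, and other genes only where their start lay within 500 bp of a complex I summit or they were on the list of assembly factors; the respiratory genes of the closing section fall outside this rule and were chosen after their values were seen. The members, lists and motifs were chosen with earlier results of these data known. Alternatives were other windows, the 974 strongest peaks, single replicates, outermost starts, peak intervals, the nearest gene and, added after seeing the data, RefSeq starts. The values of 1 complex I gene enter the counts but are not reported here.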

Additional observations from a re-analysis of the deposited data

How the results depend on the processing

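The count of 6 complex I genes with a reproducible promoter peak fell to 2 with a 250 bp window (ND-23 and ND-39, 5.00% against 9.58% of all genes) and to 2 when a start had to lie inside the peak interval (ND-23 and ND-PDSW, 5.00% against 8.39%), so under both the complex I share was below that of all genes. It was 5 with the stronger 50% of the list (12.5% against 5.74%), with outermost starts (against 9.86%) and with each summit given to its nearest gene (against 8.68%), 6 at 1000 bp (against 13.4%) and 6 with RefSeq starts (against 11.1%), an alternative chosen after seeing the data. With each replicate left out in turn it was 5 to 9, and the share of all genes 11.0 to 11.1%. The median signal was 592 at 250 bp, 807 by interval, and 395 with the stronger 50%, outermost starts or the nearest gene; single replicates gave 106 to 169 in their own units. Shared promoters numbered 0 at 250 bp, 1 by interval, 3 with outermost starts, 1 when shared within 250 bp, and 0 with the nearest gene, by construction, against 5 to 6 with a replicate left out. AGGTTA was near 2 of 2 summits at 250 bp and by interval, and near 5 of 6 with 100 bp each side. It was near 3 of 9 with replicate 3 alone and 3 of 5 with replicate 4 alone. The L paralogues stayed at 0 under each alternative run. No paired analysis was possible because there is 1 group. Unknown depth and the fixed length of the relaxed lists limit what an absent peak can say.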

Other observations

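L-suffix paralogues of the other respiratory complexes, chosen after their values were seen, were looked up in the same way. Of 15 such genes, 1 had a reproducible promoter peak, 6.67% (1.19 to 29.8%) against 11.2% of all genes, and 8 a pooled one, 53.3% (30.1 to 75.2%) against 56.7%, so both shares were near the background. Of their 14 parents, 10 had a reproducible peak, 71.4% (45.4 to 88.3%), and all 14 had a pooled one. The highest parent signals were 709 for ATPsynbeta of ATP synthase, 378 and 345 for COX5B and COX4 of cytochrome c oxidase, and 368 for ATPsynCF6. Of the paralogues of these parents, ATPsynbetaL and ATPsynCF6L had no pooled promoter summit, and COX5BL and COX4L had 31.2 and 54.8. Parents without a reproducible peak had pooled signals from 33.0 for ATPsynG to 110 for UQCR-14. The 1 paralogue with a reproducible peak was COX7CL, at 199, the same signal as its parent COX7C. A reproducible peak was found at 0 of the 5 parents of complex I paralogues (upper 95% limit 43.4%), against 11.2% of all genes. The difference between these sets of parents was not tested.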
